A study of Rattus norvegicus with 10 samples.

Results

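Genomic regions were examined that gave no read tag in some rats and a strong signal in others. They were taken from methylation profiles of the hippocampus of rats with traumatic brain injury (TBI) and of sham-operated controls. A region on autosomes 1 to 20 was kept when, among 9 of the 10 rats, at least 1 rat had 0 tags (absent) and at least 1 rat had 15 or more tags (present). By this rule, 6860 of 709429 autosomal regions were kept (716492 regions in all). The regions were thus chosen by the tag counts of 9 rats, and the rule used neither the treatment of a rat nor the counts of sham rat 5. The deposited regions were called between pairs of samples, so the library of sham rat 5 may have had a part in which regions exist.

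Rats were adult male Sprague-Dawley animals, an outbred strain in which unrelated rats differ in sequence. The 5 TBI rats received a lateral fluid percussion impact to the exposed dura over the left parietal lobe, and the 5 sham rats underwent anaesthesia and craniectomy without it. Tissue of the left hippocampus with the CA3 field and the dentate gyrus, called dorsal hippocampus in the labels, was taken 3 months later, and each rat gave 1 library. DNA was cut to about 200 to 300 bp, captured by its methylation and read over 36 bp. Injured rats were not followed by EEG, so whether any of them had spontaneous seizures is not known.

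In methyl-capture, a methyl-CpG binding protein pulls down double-stranded fragments that carry methylated CpG sites. A region can give few or no tags when its CpG sites are unmethylated or when the DNA is missing from that animal. The same can happen when short reads cannot be placed on the reference there. A weakly captured region can also go without tags because a library samples a limited number of fragments. Tag counts alone do not separate these possibilities, and which of them holds at any region here was not tested. Capture reads all cells of the tissue together, so a change within a cell type and a change in the share of cells cannot be told apart.

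Libraries held 13597924 to 21672940 tags. The library of sham rat 5 stood apart from the rest. It had no tag in 0.478% of all autosomal regions, while the share was 6.59% to 16.3% for each of the 9 rats of the rule. The main comparisons that rest on it are therefore given with and without it. Sham rat 5 also served as a library in which absence could be read without its counts having been used by the rule. It was not fully independent, since it may have had a part in the calling of the deposited regions.

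Absence was mostly an event of 1 rat. Of the 6860 regions, 5349 (78.0%) had 0 tags in exactly 1 of the 9 rats, 985 in 2 rats and 526 in 3 or more. At the upper end, 5243 regions (76.4%) reached 15 tags in only 1 rat, and 4014 (58.5%) had both 1 rat at 0 and 1 rat at 15 or more. The highest count was 15 or 16 tags in 3062 regions (44.6%). It was 15 to 19 tags in 5154 regions (75.1%). Most regions ran through intermediate counts from a rat without tags to the rat with the highest count. Only 64 regions (0.933%) had no rat between 2 and 14 tags. At the edges of the rule, 1807 regions ran from 0 to exactly 15 tags, and their median tag sum over the 9 rats was 50. Just outside it, 2453 regions ran from 0 to 14 tags with a median sum of 47, and 2804 ran from 1 to 15 tags with a median sum of 61.

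The regions were short and weak compared with other regions that could reach the limit. Their median length was 500 bp, against 724 bp in the 421803 other autosomal regions that reached 15 tags. Median signal was 0.367 CPM (tags per 1000000 tags of a library), against 1.32 CPM in the others. The choice of regions with a rat at 0 lowers the mean by itself, so these are descriptions. A subset was followed separately throughout. It comprised the 260 regions in which a rat had 30 or more tags, with a median length of 586 bp and a median signal of 0.757 CPM. In these a count of 0 stood against a strong signal elsewhere.

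Rats differed widely in how often they lacked a tag. Among sham rats, 2235 of the regions (32.6%) were at 0 in sham rat 1, 572 (8.34%) in sham rat 2, 431 (6.28%) in sham rat 3 and 1845 (26.9%) in sham rat 4. Among TBI rats, 823 (12.0%) were at 0 in TBI rat 1, 2150 (31.3%) in TBI rat 2, 511 (7.45%) in TBI rat 3, 603 (8.79%) in TBI rat 4 and 203 (2.96%) in TBI rat 5. The same 3 rats, sham 1, sham 4 and TBI 2, had the most regions at 0 over all autosomal regions (16.2%, 16.1% and 16.3%), where the other 6 rats of the rule lay between 6.59% and 11.2%. At the upper end, TBI rat 5 had 15 or more tags in 3219 regions (in 2214 of them as the only rat) and sham rat 2 in 1706 (1088), whereas sham rat 1 did so in 170 (18). Depth and absence went together in part. Sham rat 1, with the most absent regions, had the fewest tags (13597924). TBI rat 5, sham rat 3 and TBI rat 3, with the fewest absent regions, had the most tags (21244695, 20811558 and 21672940). The order was not strict, since sham rat 2 with few absent regions had 14348832 tags and sham rat 4 with many had 20570124. Whether depth set the number of zeros was not tested.

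**Figure D1:**
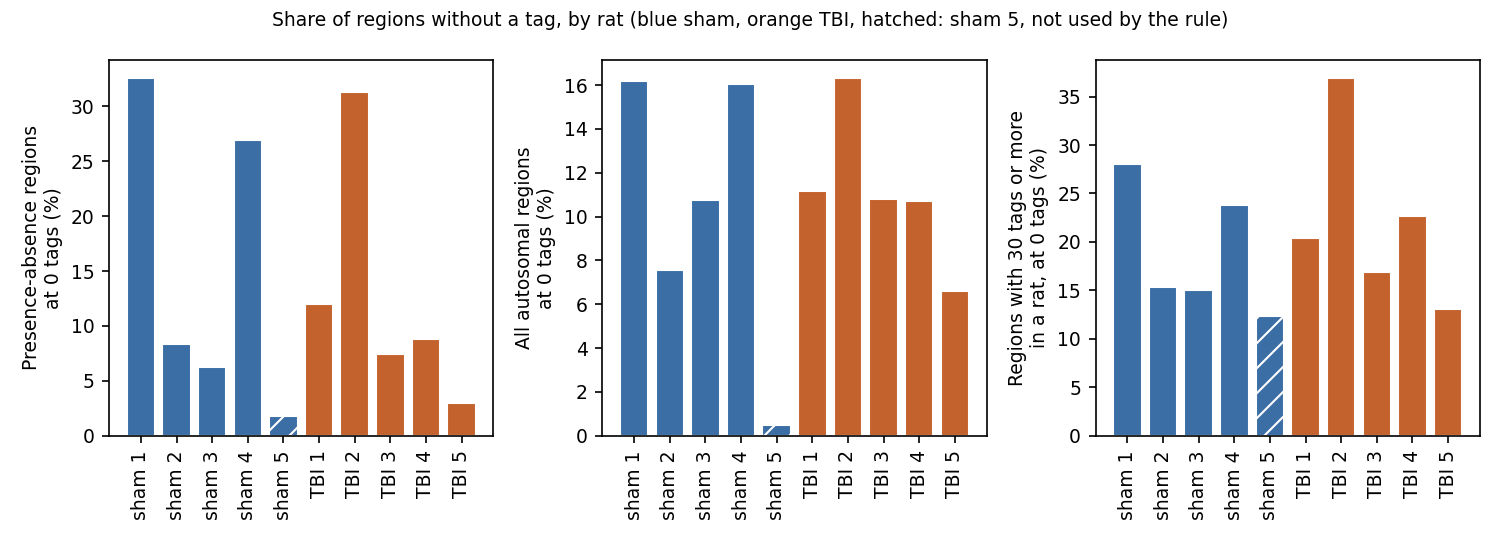
Share of regions at 0 tags in each rat, in percent, for the presence-absence regions (left), for all autosomal regions (middle) and for the 260 regions that reached 30 tags in a rat (right). Blue bars are sham rats, orange bars TBI rats and the hatched bar is sham rat 5, which the rule did not use. Sham 1, sham 4 and TBI 2 are the highest in the left and middle panels, and the right panel spans 12.3% to 36.9%.

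The number of absent regions did not separate the groups. Sham rats had 1270.75 ± 904 regions at 0 (SD, n = 4) and TBI rats 858 ± 756 (SD, n = 5). The difference of -412.75 was smaller than either SD (exact permutation test over 126 splits, two-sided, p = 0.571, adjusted p = 0.667 over 4 measures). In the 260 stronger regions the means were 53.5 ± 16.8 in sham rats (n = 4) and 57.2 ± 23.7 in TBI rats (n = 5), and the sign of the difference turned (3.7 regions, exact permutation test, two-sided, p = 0.873). The smallest p that 4 against 5 rats allow is 0.0159.

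Regions absent in several rats showed which animals shared absence. There were 1511 regions with 2 or more of the 9 rats at 0. In 1113 of them the absent rats came from both groups, in 223 from sham rats only and in 175 from TBI rats only. The 3 sets found most often were the pairs among the rats with most zeros, namely sham 4 with TBI 2 (157 regions), sham 1 with TBI 2 (152) and sham 1 with sham 4 (135). The next sets were far smaller, with 45 regions for sham 1 with TBI 1 and 38 for sham 1, sham 4 and TBI 2 together. In all, 255 of 510 possible sets of rats occurred.

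The overlap of absent regions between a pair of rats was measured with the Jaccard index, the regions at 0 in both rats divided by those at 0 in either. Over the 36 pairs it lay between 0.0283 and 0.107. The highest value belonged to a pair across groups, sham 3 and TBI 4, which shared 100 regions (23.2% of those absent in sham 3 and 16.6% of those absent in TBI 4). Pairs within a group had a mean index of 0.0632 ± 0.0198 (SD, 16 pairs) and pairs across groups 0.0654 ± 0.0215 (SD, 20 pairs). The difference of -0.00223 was small against the spread between pairs (exact permutation test over 126 splits of the rats, two-sided, p = 0.857). Among the 260 stronger regions the mean index was 0.156 within and 0.143 across groups, with a difference of 0.0123 (exact permutation test, two-sided, p = 0.254). Sharing of absence by treatment was therefore not detected by either rule.

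**Figure D2:**
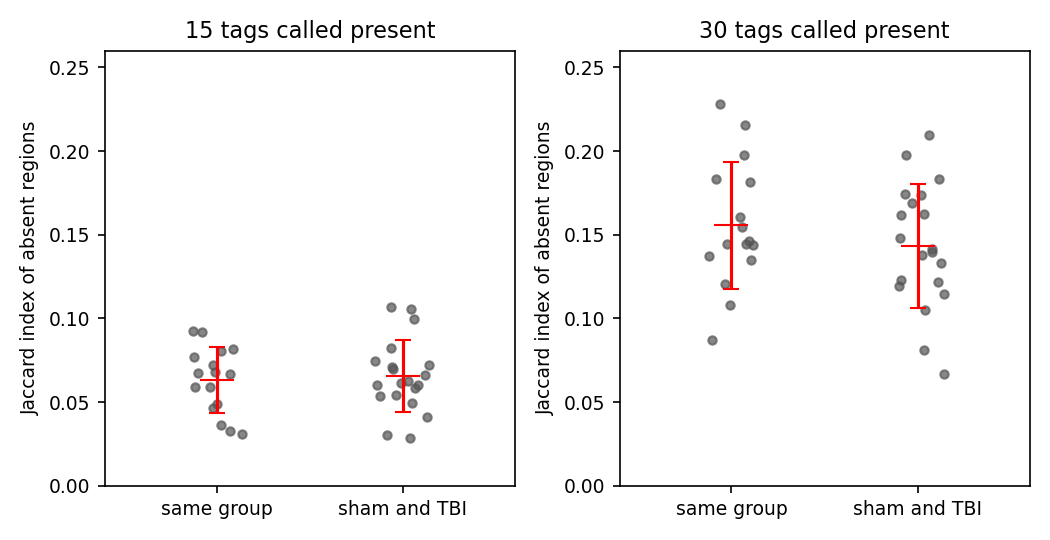
Jaccard index (regions absent in both rats of a pair divided by regions absent in either, no unit) for each pair of the 9 rats, with 15 tags (left) or 30 tags (right) called present. Each point is a pair, and the red bars give the mean and SD. Same-group and sham-TBI pairs overlap in both panels, with means of 0.0632 and 0.0654 on the left and 0.156 and 0.143 on the right. On the right, same-group pairs span 0.0874 to 0.228 and sham-TBI pairs 0.0667 to 0.210.

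Complete separation of the groups by presence and absence was not seen. No region had 0 tags in every rat of a group and 15 or more in every rat of the other (0 of 6860). All 4 sham rats of the rule were at 0 in 25 regions, and all 5 TBI rats were at 0 in 7. Tag levels (CPM) did not overlap between the groups in 88 regions over the 9 rats, 67 higher and 21 lower in TBI rats. This was 1.28% of the regions, and the share over all autosomal regions was 1.28% as well (0.836% higher and 0.441% lower). With sham rat 5 included, 22 regions (0.321%) had no overlap, 11 in each direction, compared with 0.446% of all autosomal regions (0.291% higher and 0.155% lower). Of the 260 stronger regions, 6 (2.31%) had no overlap over the 9 rats, against 1.28% of all autosomal regions. In each of the 6, TBI rats were lower (0.441% of all autosomal regions were lower without overlap). The 260 were chosen by the counts of the same 9 rats, so the larger share was not an independent finding. With sham rat 5 included, 1 of the 260 (0.385%) had no overlap, against 0.446% of all autosomal regions.

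Stronger regions had another pattern of absence. Regions whose highest count was 15 to 19 tags were absent in 2 or more rats in 22.0% of cases, those at 20 to 29 tags in 18.5%, those at 30 to 49 tags in 38.5% and those at 50 or more tags in 51.9% (27 of 52). The part of sham 1, sham 4 and TBI 2 fell along the same bins, from 68.2% of all zeros in the weakest bin to 33.3% in the strongest. So zeros of weak regions lay mainly in the 3 rats with many zeros elsewhere, while zeros of strong regions were spread more evenly over the rats.

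Sham rat 5 gave a further reading of absence. It had 0 tags in 122 of the 6860 regions (1.78%, 95% Wilson interval 1.49% to 2.12%), compared with 0.478% of all autosomal regions. Where none of the other 4 sham rats was absent, sham rat 5 was at 0 in 1.02% of regions (25 of 2441), and where 3 or 4 of them were absent, in 32.7% (32 of 98). Among the 260 stronger regions it was at 0 in 12.3%. Within these, the share was 0.654% (1 of 153) where 1 rat of the rule was at 0 and 42.9% (24 of 56, interval 30.8% to 55.9%) where 3 or more were. In a library that otherwise rarely lacked tags, the share of zeros was thus higher where more of the other rats lacked them. The intervals cover counting error only, and neighbouring regions share their source.

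The position of the regions along the genome was then examined. They made up between 0.789% (chromosome 15) and 1.09% (chromosome 13) of the regions of each autosome, a narrow range. The 260 stronger regions were spread less evenly, with 8.45 per 10000 regions on chromosome 12, 7.28 on chromosome 18 and 6.85 on chromosome 11, against 1.4 on chromosome 15. Another region of the same kind lay within 100 kb of 50.1% of the 6860 regions, and 45.9% of the other autosomal regions had one within that distance. At 10 kb the shares were 9.10% and 6.90%. Of the 260 stronger regions, 21.5% (56) had another of them within 100 kb, whereas 1.99% of other autosomal regions had one. Clusters were formed by joining regions at gaps of up to 100 kb, which gave 1353 clusters of 2 or more with 3437 members, 3423 regions on their own and 65 clusters of 5 or more.

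Neighbours often lacked tags in the same rats where the signal was strong. Among all regions, 15.3% of adjacent pairs within 100 kb (318 of 2084) were absent in exactly the same rats, compared with 12.3% of pairs on the same chromosome more than 1 Mb apart. A single rat at 0 accounts for most regions, so identical sets are common at any distance. For regions absent in 3 or more rats the shares were 23.6% (13 of 55) and 1.48%. For the 260 stronger regions, sets were identical in 69.2% of adjacent pairs within 10 kb (9 of 13, interval 42.4% to 87.3%), in 41.4% within 100 kb (12 of 29) and in 5.98% of pairs over 1 Mb apart. The gap between near and distant pairs was thus wide among strong regions and narrow over all regions.

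**Figure D3:**
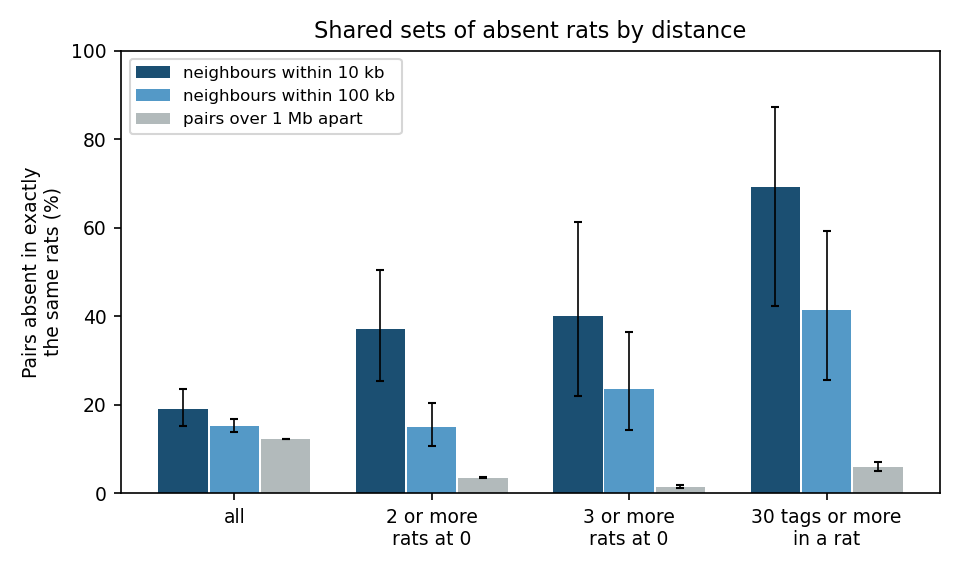
Share of pairs of regions absent in exactly the same rats, in percent, for adjacent regions within 10 kb, within 100 kb and for pairs more than 1 Mb apart on a chromosome, in 4 classes of regions. Error bars are 95% Wilson intervals, which cover counting error only. The gap between near and distant pairs is small for all regions (19.1% and 12.3%) and wide for regions with 30 tags or more (69.2% and 5.98%).

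Absence rarely reached into neighbouring regions outside the set. Signal in rats at 0 was compared with that in rats at 15 or more as a log2 ratio of mean CPM with 0.5 added. In the region itself the median was -1.46, a value that the rule fixes. In the nearest region outside the set within 10 kb on each side, the median log2 ratio was -0.0757, close to that 1 to 2 Mb away (-0.0788). For the 260 stronger regions the medians were -1.97 in the region itself, -0.0888 in the nearest neighbour and -0.0329 at 1 to 2 Mb. A neighbour with a log2 ratio of -1 or lower was found for 2.07% of flanks of all regions and for 3.79% of flanks of the stronger ones. Thus neighbouring regions outside the set on the whole kept their tags. Regions of the set were left out of these flanks, so a flank with a rat at 0 could not reach 15 tags. The flanks therefore cannot show joint loss of strong neighbours. With regions of the set among the flanks too, the median over all regions was -0.0812. Stretches in which several regions were lost together are described next.

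On chromosome 1, 6 of 10 regions between 75322648 and 75416473 (RN4 assembly) were absent in TBI rat 4 and in no other rat of the rule (sham rat 5 was at 0 in 1 of them). This cluster was singled out after its values were seen. Its strongest region, chr1:75363882-75365338, had 187, 56, 132, 302 and 103 tags in sham rats 1 to 5. In TBI rats 1 to 5 it had 73, 92, 237, 0 and 85 tags. It ranked highest by CPM among all regions of the set, and 1 rat lacked it altogether. A second region, chr1:75354782-75355301, had 86, 21, 39, 124 and 36 tags in sham rats and 25, 41, 89, 0 and 22 in TBI rats. Sham rats 1 and 4 and TBI rat 3 were the 3 highest at both. The 4 remaining regions between them summed to 3 tags in TBI rat 4 and to between 37 and 190 in every other rat.

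Absence of the same kind was found in TBI rat 5 on chromosome 5. Between 134093382 and 134283497, 7 of 14 regions belonged to the set, and TBI rat 5 was at 0 in each of them. This cluster too was singled out after its values were seen. At chr5:134236871-134237295 the sham rats had 8, 14, 26, 15 and 8 tags and the TBI rats 6, 23, 36, 15 and 0. The other 7 regions between them were at 0 in TBI rat 5 in 6 cases, so the absence of this animal spanned nearly the whole stretch of 190 kb.

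On chromosome 20, opposite patterns alternated within 102 kb. Of the 19 regions between 4382212 and 4483854, 8 belonged to the set, which made this the densest of the 6 largest clusters. In 4 of them TBI rat 5 was the only rat at 0, as in chr20:4427699-4429119 with 45, 24, 29, 46 and 55 tags in sham rats and 44, 34, 43, 41 and 0 in TBI rats. In the other 4, TBI rat 1 was at 0 and TBI rat 5 had the highest count of all 10 rats. An example is chr20:4483229-4483854, with 0, 19, 22, 27 and 0 tags in sham rats and 0, 16, 29, 22 and 35 in TBI rats. Sham rat 1 had 0 or 1 tag in these 4 regions. Sham rat 5, whose counts the rule did not use, was at 0 in 3 of the 4. The rats without tags thus came from both groups, and TBI rat 5, which lacked one kind of region, was the highest in the other kind.

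On chromosome 2, 3 adjacent regions between 225601038 and 225603397 were absent in sham rat 2 and TBI rat 3. They were described after their values were seen. At chr2:225601924-225602455 there were 13, 0, 28, 24 and 0 tags in sham rats and 20, 16, 0, 45 and 28 in TBI rats. Sham rat 5 had 3, 0 and 0 tags in the 3 regions. A region 10 kb further on, chr2:225613599-225614170, had 26 tags in sham rat 2 and 14 in TBI rat 3, so the shared absence ended within that distance.

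At the start of chromosome 12, 3 regions drew most of their tags from the same 4 rats. The strongest, chr12:22874-23162, had 81, 2, 0, 129 and 0 tags in sham rats and 133, 0, 0, 1 and 70 in TBI rats. Upstream, chr12:6508-6942 had 11, 0, 0, 20 and 0 tags in sham rats and 17, 0, 0, 0 and 11 in TBI rats. Sham 1, sham 4, TBI 1 and TBI 5 carried the signal at both, and the other rats had 2 tags at most. A weak region between them that did not meet the rule, chr12:21248-21408, had its 13, 9, 6 and 6 tags in the same 4 rats and 0 in all others. At the next region downstream, chr12:41982-42419, every rat had tags (3 to 21).

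**Figure D4:**
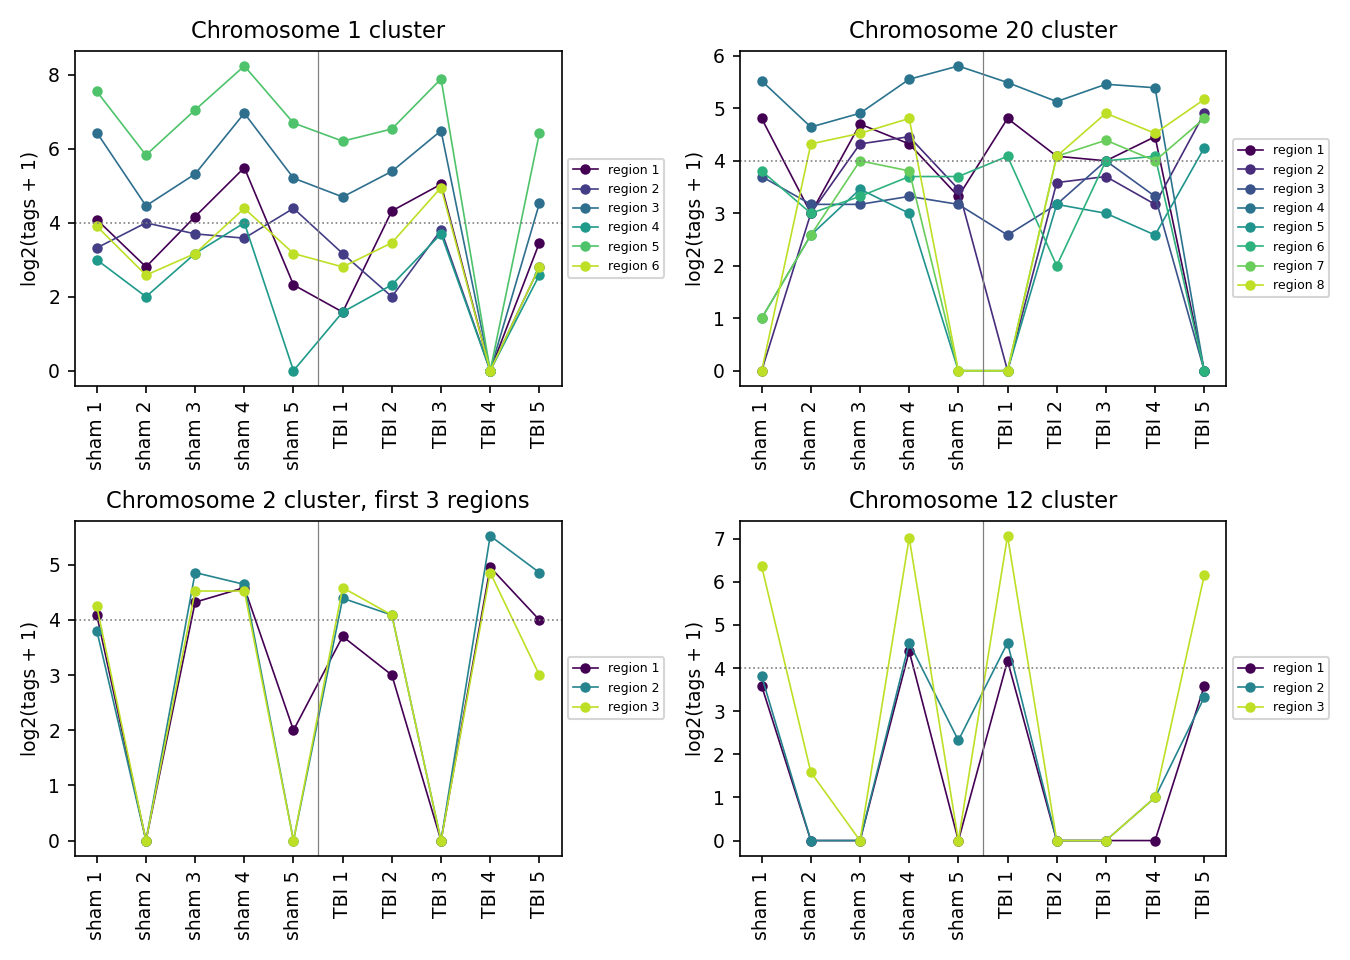
Tags per region and rat, as log2(tags + 1), in 4 clusters; lines join the values of a region, the dotted line marks 15 tags and the vertical line divides sham from TBI rats. All 6 regions on chromosome 1 fall to 0 in TBI rat 4, regions on chromosome 20 fall to 0 either in TBI rat 5 or in TBI rat 1, and on chromosomes 2 and 12 the regions rise and fall together in rats of both groups.

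Several of the strongest regions absent in 3 or more rats showed mixed groups as well. At chr13:86913362-86914351 there were 116, 1, 0, 1 and 36 tags in sham rats and 32, 0, 0, 56 and 3 in TBI rats. Further downstream, chr13:86955082-86956200 gave 157, 4, 1, 3 and 101 tags in sham rats and 51, 0, 3, 115 and 1 in TBI rats. Sham 1, sham 5, TBI 1 and TBI 4 were high at both. The region next to the first, chr13:86911110-86912868, was present in every rat, but sham 1 (242 tags), TBI 4 (149) and TBI 1 (106) were again the highest.

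Other regions belonged to few rats. At chr3:52425308-52425952, sham rat 1 had 34 tags, sham rat 4 had 113 and TBI rat 4 had 38, and the other 7 rats had none. At chr6:958001-958781 there were 0, 38, 80, 0 and 3 tags in sham rats and 0, 24, 2, 2 and 2 in TBI rats. At chr11:63692772-63694031, TBI rat 1 had 62 tags, TBI rat 3 had 1 and all other rats had 0, and chr11:63700318-63700797 nearby had 18 tags in TBI rat 1 and 1 tag in sham rat 3. The mean CPM of TBI rats at the first was at least 5.12-fold higher than a floor of 3 tags in each sham library, and a single rat set this value. With 10 rats, none of these 3 regions passed an unadjusted p under 0.01 where regions were filtered on their tag sum. The p was 0.0967 at chr3:52425308-52425952 and 0.0666 at chr6:958001-958781 (edgeR's quasi-likelihood test), and chr11:63692772-63694031 did not reach the tag sum needed. Without sham rat 5 and without the filter, the adjusted p was 0.000798, 0.00393 and 0.000361 in the same order, although most tags at each region came from 1 to 3 rats.

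The larger clusters by number of regions were mostly weak. The largest, on chromosome 5 from 135024417 to 135290698, had 11 members among 130 regions, with 5 different sets of absent rats and no count above 28 tags in the 9 rats. The next, on chromosome 17 from 128708 to 328383, had 10 members among 94 regions and a highest count of 25 tags. On chromosome 10, 9 of 236 regions between 103711360 and 104153579 and 7 of 75 between 5316076 and 5497642 were members, again with highest counts of 20 and 25 tags. A cluster on chromosome 3 from 168174339 to 168505874 was stronger in part. TBI rat 2 was at 0 in 5 of its 8 members, among them chr3:168174339-168175058 with 16, 25, 40, 42 and 30 tags in sham rats and 15, 0, 31, 44 and 34 in TBI rats.

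Next, tag counts were compared between TBI and sham rats, in a fit across all regions that had a tag sum of at least 117 over the 10 rats (the 50th percentile, 358249 regions). Only 662 of the 6860 regions reached that sum, 190 of the 260 stronger ones among them. A region passes more easily when its tags are in many rats, so the tested regions do not stand for all 6860. At an unadjusted p under 0.01, 17 of the 662 regions were called (2.57%), whereas 0.266% of all tested regions were. All 17 had fewer tags in TBI rats. Over all tested regions 0.168% were called lower and 0.098% higher. The rule chose regions in which rats lie far apart, so a larger share than the background was not an independent finding. After adjustment over all tested regions, edgeR's quasi-likelihood test left 0 of the 662 below 0.05, and 65 had an unadjusted p under 0.05 (background 2.45%). After the same adjustment, the Wald test of DESeq2 gave 0 and edgeR's likelihood ratio test gave 2 (background 0.00112%).

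The one-sided count depended on the library of sham rat 5. Without it, 429 regions were tested and 28 were called (6.53%, background 0.792%), of which 11 were higher (background 0.397%) and 17 lower (background 0.396%) in TBI rats. Fits without sham rat 5 used only the 9 rats whose counts chose the regions, so larger shares there were not independent findings. The median log2 fold change of the tested regions moved from -0.46 with 10 rats (all tested regions -0.02) to 0.04 without sham rat 5 (all tested regions -0.00268). When every region with a tag was tested, so that all 6860 entered, 116 were called with 10 rats (background 0.535%), 27 higher (background 0.092%) and 89 lower (background 0.443%). Without sham rat 5, 408 were called in that fit (background 0.77%), and the balance turned to 253 higher (background 0.352%) and 155 lower (background 0.417%). The direction over the whole set thus changed with 1 library and with the filter. Leaving out other rats also moved the count of 17, and the numbers of regions tested and the background moved with it. There were 63 of 821 without sham rat 4 (7.67%, background 0.727%), 34 of 782 without sham rat 1 (4.35%, background 0.433%), 26 of 658 without TBI rat 5 (3.95%, background 0.263%) and 9 of 742 without TBI rat 3 (1.21%, background 0.171%).

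Of the 5 regions with fewer tags in TBI rats and the smallest p, 2 had no tag in any TBI rat. The first, chr2:254775499-254776500, had 21, 16, 65, 0 and 45 tags in sham rats and 0 in all 5 TBI rats. Sham rat 4 was absent with the TBI rats, so the groups overlapped. Mean CPM of sham rats (1.64 ± 1.20 SD, n = 5) was at least 9.65-fold higher than a floor of 3 tags in each TBI library, and at least 8.50-fold without sham rat 5. The unadjusted p was 1.33e-05 with 10 rats, and the adjusted p without sham rat 5 was 0.00223 (edgeR's quasi-likelihood test). The region 381 bp upstream had 0 to 5 tags, and the region 1389 bp downstream had tags in every rat (3 to 25), with no order by group.

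The second, chr6:71662437-71663129, had 2, 38, 88, 98 and 0 tags in sham rats and 0 in all TBI rats. The signal came from sham rats 2, 3 and 4, while sham rats 1 and 5 had 2 tags or none, like the injured rats. Mean CPM of sham rats was at least 13.9-fold higher than the floor of the TBI libraries (17.3-fold without sham rat 5). The unadjusted p was 4.26e-05 with 10 rats and the adjusted p was 3.97e-06 without sham rat 5 (edgeR's quasi-likelihood test). The regions on both sides, 6695 and 18170 bp away, had 17 to 95 tags in every rat, so the absence did not extend to them.

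At chr5:62291057-62291566 sham rats had 31, 16, 27, 37 and 14 tags, and TBI rats had 0, 0, 0, 0 and 15. TBI rat 5 had a signal in the range of sham rat 5, and the other 4 TBI rats had none. The log2 fold change was -3.17 ± 0.71 SE (edgeR's quasi-likelihood test, unadjusted p = 0.000237, adjusted p without sham rat 5 = 0.0277). The next region downstream, chr5:62293410-62294439, which did not meet the rule, had 23, 22, 17, 52 and 20 tags in sham rats and 4, 3, 7, 2 and 27 in TBI rats. Here too TBI rat 5 stood with the sham rats and the other TBI rats were low. The region upstream, chr5:62287893-62288347, did not show this order, with 3 to 10 tags in 9 rats and 32 in sham rat 5.

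At chr3:140057498-140058473 sham rats had 74, 25, 47, 53 and 2 tags and TBI rats 24, 3, 3, 1 and 0. Sham rat 5 was as low as the TBI rats, and TBI rat 1 was nearly as high as sham rat 2. The log2 fold change was -2.72 ± 0.75 SE (edgeR's quasi-likelihood test, unadjusted p = 0.00171, adjusted p without sham rat 5 = 0.0134). Another region of the set 4479 bp upstream, chr3:140052690-140053019, had a similar order, with 33, 12, 12, 17 and 0 tags in sham rats and 12, 0, 0, 1 and 0 in TBI rats.

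The last of these 5 regions, chr14:17954869-17955781, had 5, 15, 4, 4 and 79 tags in sham rats and 1, 0, 2, 2 and 6 in TBI rats. The value rested on the 79 tags of sham rat 5. With 10 rats the log2 fold change was -3.41 ± 0.86 SE (edgeR's quasi-likelihood test, unadjusted p = 0.000797), and without that library the region fell below the tag sum needed for the test.

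**Figure D5:**
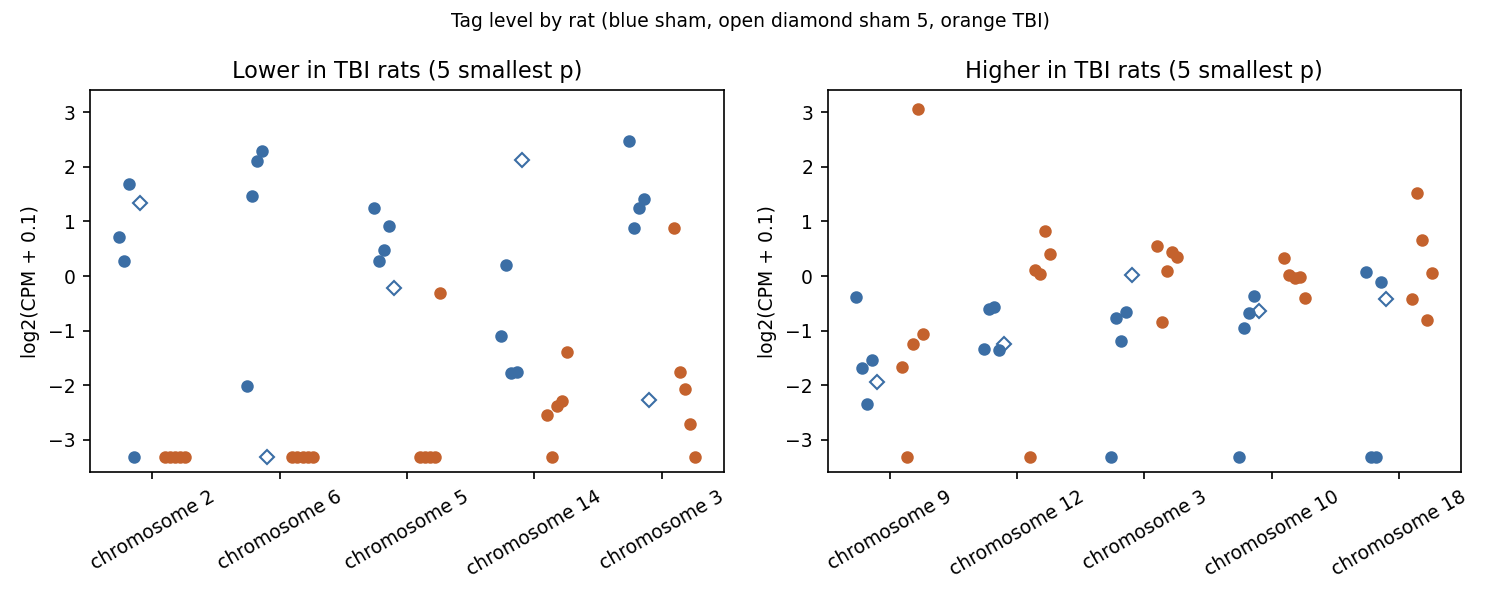
Signal as log2(CPM + 0.1) in each rat at the 5 regions with the smallest p lower in TBI rats (left) and higher in TBI rats (right), each named by its chromosome. Filled blue circles are sham rats 1 to 4, open diamonds sham rat 5 and orange circles TBI rats, and the lowest level marks 0 tags. All TBI rats lie at 0 on chromosomes 2 and 6, 4 of 5 do on chromosome 5, and a single TBI rat lies far above all others on chromosome 9.

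Among the 662 regions that reached the tag sum, the quasi-likelihood test over 10 rats called none with more tags in TBI rats at an unadjusted p below 0.01. By the likelihood ratio test there was 1 of 23 called in either direction (background 0.424% in either direction). When every region was tested, 27 passed (background 0.092%). Among the 662, the smallest p in this direction belonged to chr9:36799379-36799682, with 9, 3, 2, 5 and 3 tags in sham rats and 3, 0, 7, 157 and 8 in TBI rats (edgeR's quasi-likelihood test, log2 fold change 2.77 ± 0.98 SE, unadjusted p = 0.0104). The 157 tags of TBI rat 4 set this value, and the other 4 TBI rats had 0 to 8 tags, against 2 to 9 in sham rats. At chr3:139498130-139499024 the order was more even, with 0, 7, 7, 11 and 17 tags in sham rats and 19, 7, 21, 24 and 25 in TBI rats (log2 fold change 1.08 ± 0.48 SE, unadjusted p = 0.0382 by the same test). At chr12:7421758-7422233 there were 4, 8, 12, 6 and 6 tags in sham rats and 0, 15, 20, 32 and 26 in TBI rats (1.20 ± 0.53 SE, unadjusted p = 0.0340). TBI rat 1 lacked the region that the other 4 TBI rats had at higher levels than any sham rat. Without sham rat 5, the unadjusted p at these regions on chromosomes 9, 3 and 12 was 0.00205, 0.00120 and 0.0173 (edgeR's quasi-likelihood test). The adjusted p was 0.996 at each.

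Without sham rat 5, 5 regions of the set passed an adjusted p under 0.05, of 14 such regions among all those tested (background 0.0039%), and all 5 were lower in TBI rats. They were the regions on chromosomes 6, 2, 3 and 5 described above and chr17:72474674-72475232. The last had 15, 28, 62, 21 and 0 tags in sham rats and 0, 0, 2, 14 and 0 in TBI rats (edgeR's quasi-likelihood test, adjusted p = 0.0191). It belonged to a cluster of 7 members among 37 regions between 72211526 and 72475232 that was examined after its values were seen. In the 7 members, sham rats 1 to 4 always had tags, TBI rats 1, 2, 3 and 5 were at 0 in 5, 6, 4 and 3 of them, and sham rat 5 was at 0 in 5. TBI rat 4 was at 0 in 1 member and otherwise had 2 to 14 tags. Sham rat 5, left out of the fit in which chr17:72474674-72475232 passed, therefore stood with the TBI rats here, as it did at the regions on chromosomes 6 and 3.

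With every region tested and sham rat 5 left out, 32 members passed an adjusted p under 0.05 (60 regions in all, background 0.00853%), 10 higher (background 0.00242%) and 22 lower (background 0.00611%) in TBI rats, whereas none passed with 10 rats. Some that were higher are named here after their values were seen. At chr1:249419884-249420563 sham rats had 0, 0, 0, 0 and 6 tags and TBI rats 17, 10, 17, 1 and 18 (edgeR's quasi-likelihood test without filter, adjusted p = 5.71e-05 without sham rat 5). Here TBI rats 1, 2, 3 and 5 lay above every sham rat, and TBI rat 4 with 1 tag lay below sham rat 5. At chr18:29555273-29555796 all sham rats were at 0 and TBI rats had 13, 0, 42, 0 and 13 tags. At chr11:37527836-37528416 the tags came from TBI rat 1 (44) and TBI rat 4 (21), and at chr1:79863733-79864337 from TBI rat 1 (27) and TBI rat 5 (38), with 0 in all other rats. In these 3 regions the presence was thus limited to 2 or 3 of 5 TBI rats.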

How the data were processed

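Raw tag counts per region were deposited by the authors for 5 sham and 5 TBI rats, without scaling. The labels and the methods of the study state that reads were aligned to RN4 with BWA, regions called with MACS between pairs of samples and merged with BEDTools, and duplicate reads removed. Regions entered the matrix where a pair of libraries differed, and duplicate removal limits the tags a short region can reach. Coordinates are given as deposited, and whether they count from 0 or 1 is not stated. The gene and sequence tables at hand are of another build, so no gene or sequence is given. All 10 columns were used (0 others). The methods of the study list 1 sham library fewer than were deposited and do not say which was left out.

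The regions, the lists and the tests were chosen with earlier results of these data known. CPM was computed on total tags of all regions. The main test was edgeR's quasi-likelihood test (version 4.0.16 under R 4.3.3, TMM and trended dispersion) on regions with a tag sum of at least 117 (50th percentile), with Benjamini-Hochberg adjustment over all of them. SEs come from the F statistic. Single comparisons used exact permutation tests (scipy 1.17.1) under Python 3.11.15 with numpy 2.4.6, pandas 2.3.3 and matplotlib 3.10.9. Replicates are separate rats with 1 library each, so spread between rats and spread between libraries cannot be told apart. The edgeR p-values rest on a dispersion trend over all tested regions as well as on the counts of 1 region. Some were small where nearly all tags came from 1 rat, so they do not measure the spread between rats alone. The 95% Wilson intervals cover counting error only.

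Regions named by rule were the 6 clusters with most members, the 6 members with the highest CPM among those with 3 or more rats at 0 (at most 1 per cluster), members with full separation of the groups, and for each direction the 5 of smallest p. Others are said to be chosen after seeing values. Alternatives were other tag limits, thinning to the smallest library, the 10th rat in the rule, other scalings and tests (DESeq2 1.42.0), no filter and leaving out each rat. The edgeR fit and the measures of neighbours, sharing and flanks were tested on simulated data first. The counts simulated for the edgeR fit had 10 rats and 1 dispersion for all regions. That check therefore does not cover regions present in single rats or the fits without sham rat 5.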

Additional observations from a re-analysis of the deposited data

Results flagged for a closer look

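Values of each group were screened for a rat far from the rest of its group, among them the CPM values in each region named by rule. Of 52 sets of values screened, 9 stood out, where chance alone gives about 1 in 20. The regions were chosen because rats lie far apart in them, so more than the chance share is part of the choice. At chr13:86913362-86914351, sham rat 1 had 8.53 CPM and the next sham rat 1.94. At chr3:52425308-52425952, TBI rat 4 had 2.00 CPM and the other TBI rats 0. At chr11:63692772-63694031, TBI rat 1 had 4.47 CPM and the next TBI rat 0.0461. At chr6:958001-958781, TBI rat 2 had 1.57 CPM and the next TBI rat 0.105. At chr9:36799379-36799682, sham rat 1 had 0.662 CPM against 0.243 in the next sham rat, and TBI rat 4 had 8.25 CPM against 0.377 in the next TBI rat. At chr5:62291057-62291566, TBI rat 5 had 0.706 CPM and the other TBI rats 0. At chr14:17954869-17955781, sham rat 5 had 4.25 CPM and the next sham rat 1.05. At chr3:140057498-140058473, TBI rat 1 had 1.73 CPM and the next TBI rat 0.197.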

How the results depend on the processing

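No paired analysis was possible because each rat has its own number and stands in 1 group. The set of regions depended on the rule. It held 27124 regions at 10 tags, 1706 at 20, 260 at 30, 18452 with up to 1 tag called absent, 3734 after thinning every library to the smallest total, 62480 with sham rat 5 in the rule and 4583 to 6362 with a rat left out.

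The difference in regions at 0 per rat (TBI minus sham) turned to 3.7 at 30 tags and to 670.8 with sham rat 5 in the rule, and was -735.5 to -91.4 with a rat left out. Sharing within minus between groups turned to 0.00312 at 20 tags, 0.0123 at 30 tags, 0.00104 after thinning, 0.00116 without sham rat 3 and 0.00182 without TBI rat 2 (-0.0053 to 0.00182 with a rat left out). No alternative took either difference past p = 0.05 (exact permutation tests).

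In the order 10, 20 and 30 tags, up to 1 tag absent, thinned and 10 rats, the share with another region within 100 kb was 89.1%, 26.3%, 21.5%, 80.8%, 34.2% and 98.1%. It was 9.10% within 10 kb, 98.5% within 1 Mb and 40.1% to 48.2% with a rat left out. In the same order, neighbours with identical sets made up 10.8%, 22.2%, 41.4%, 11.6%, 16.9% and 3.25%. They made up 19.1% up to 10 kb and 12.3% over 1 Mb apart, and 15.9% to 19.9% with a rat left out. The flanking log2 ratio was -0.0650 at 10 tags, -0.0655 at 20 tags, -0.0574 with up to 1 tag absent, -0.102 thinned, -0.290 with 10 rats, -0.123 and -0.0519 with 0.1 and 1 CPM added, and -0.0881 to -0.0529 with a rat left out. Sham rat 5 was at 0 in 0.914%, 3.52% and 12.3% of regions at 10, 20 and 30 tags, limits added after seeing the data.

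At an unadjusted p under 0.01, 17 of 662 regions were called in the main fit (background 0.266%). The count was 116 of 6860 without filter (background 0.535%) and 5 of 662 with DESeq2 (background 0.243%). In the main fit it was 32 of 709, 10 of 531 and 8 of 190 at 10, 20 and 30 tags. It was 65 of 662 at p under 0.05 (background 2.45%) and 4 of 662 at p under 0.001. With a rat left out it was 9 to 63 (backgrounds 0.171% to 0.792%). Without filter and sham rat 5 together, added after seeing the data, it was 408 of 6860 (background 0.77%). The count at an adjusted p under 0.05 was 2 of 662 with the likelihood ratio test (background 0.00112%). It was 32 of 6860 without filter and sham rat 5 (background 0.00853%). With a rat left out it was 0 to 5. There were 5 of 429 without sham rat 5 (background 0.0039%), 1 of 821 without sham rat 4 and 1 of 658 without TBI rat 5. For the adjusted counts without sham rat 4 and without TBI rat 5, and at p under 0.001, no share over all regions was counted. Those counts are therefore not read as results about the set. The regions were chosen by counts of these same rats, so shares above the background were not independent findings. The causes were not tested. For the 10 regions with the smallest p, 5 in each direction, 140 alternative values gave 0 turned directions, 3 that no longer passed p under 0.01 and 11 that newly passed. A further 10 had no value, in 9 cases because the region fell below the tag sum once a rat was left out and in 1 because DESeq2 gave no p. At these depths, 15 tags equal 0.692 to 1.10 CPM, and a count of 0 allows up to 3 tags.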

Other observations

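Chromosome X was left out of the rule. Applied there, the same limits kept 75 of 7062 regions (1.06%, against 0.967% of autosomal regions). Of these, 64 were at 0 in a single rat, 1 reached 30 tags and the highest count was 37.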
